A study of Mus musculus with 44 samples.

Results

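The comparison described here is the change in hippocampal gene expression between 1 h and 3 h after fear conditioning in Kdm5b mutant mice. It takes the libraries labelled Kdm5bDARID/DARID of the second cohort at 3 h (n = 6) against those at 1 h (n = 6), across all genes, which makes 12 of the 36 libraries with gene counts and 12 of the 44 samples of the series. The mice were homozygous for the Kdm5b ΔARID allele, a germline deletion of early exons that shortens the JmjN domain, removes the ARID domain and disrupts the demethylase activity, so the allele is present in every cell and from development onwards. They were young adult F2 animals of a C57BL/6J by 129S2/Sv cross, with 3 libraries labelled male and 3 labelled female at each time. Each library came from 1 mouse, so the p-values measure the spread between mice. At the training session all 12 mice received foot shocks in the conditioning chamber, and they were killed 1 h or 3 h afterwards. Naive home cage mutants (0 h, n = 6) and WT littermates at 1 h and 3 h (n = 6 each), which carry the intact allele, are given beside the mutants where a value needs them. The tissue was dorsal hippocampus and the libraries were made from polyadenylated RNA. Because this is bulk RNA, fewer cells expressing a gene and less RNA per cell cannot be told apart.

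KDM5B removes methyl groups from lysine 4 of histone H3, a mark of active promoters. Neuronal activity starts a brief wave of transcription of immediate early genes, which encode transcription factors of the Fos, Egr and Nr4a families, together with phosphatases that switch MAP kinase signalling off again. These transcripts are short-lived, and the genes they control follow later. A comparison of 3 h with 1 h asks which transcripts moved between these times after the same training.

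The libraries held 53798470 to 86720768 counts at 1 h and 56774704 to 69167677 counts at 3 h. One of them went against its label. In the library labelled mutant 3 h female 2, Xist, the transcript of the inactive X chromosome, had 36 counts and the Y-linked gene Ddx3y had 4185. Its genotype label was then checked with the 10 autosomal genes, chromosome 18 left out, that differed most between genotypes, relative to their spread, in the 34 libraries whose sex transcripts matched their labels. This check was added after the values were seen. The library was nearer to the WT mean for 8 of the 10 genes, while the other 11 mutant libraries at 1 h and 3 h were nearer to the mutant mean for 9 or 10 of them. Those 11 libraries helped to choose the genes, and the discordant library did not. Asic4, an acid-sensing ion channel gene on chromosome 1, was at 3.74 CPM in it, against 5.44 to 17.3 CPM in the other 17 mutant libraries and 2.41 to 7.12 CPM in 17 WT libraries. The one other library with discordant sex transcripts, labelled WT 1 h male 1, was nearer to the mutant mean for 10 of the 10 genes. Which mouse each of these 2 libraries came from could not be settled from the labels, so the 12-library values may count a library that is not from a mutant at 3 h, and WT values at 1 h may count a mutant. The labels were kept, and fold changes are given on 12 libraries and then on the 11 without mutant 3 h female 2. Levels at 3 h include that library unless stated. Levels are in CPM, the count scaled to library size with TMM factors, n = 6 per group unless stated, and fold changes are log2 with their standard error (SE).

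Markers of neighbouring tissue varied between libraries. The summed level of 12 choroid plexus markers, the tissue that makes cerebrospinal fluid, was 67.6, 137.6 and 1173 CPM at 1 h and 61.5, 1540 and 3771 CPM at 3 h. All 12 markers had positive log2 fold changes at 3 h, none past the test, 7 of them with an unadjusted p under 0.05 on 12 libraries and 0 on 11. Their defining marker Ttr ranged from 27.4 to 997.9 CPM at 1 h and from 19.5 to 3298 CPM at 3 h, and at 3 h it was high in mutant 3 h female 2 and the 3 libraries labelled male, and low in the other 2. The discordant library also had the highest summed oligodendrocyte markers of the 12 (11919 CPM, against 5733 to 9054 CPM in the other 11), the highest thalamus and interneuron sums (234.1 and 1061 CPM) and the lowest dentate granule cell sum (761.2 CPM). Sums for CA1, CA3, astrocytes, microglia and endothelium overlapped between the times, and no marker of any list had a mean under 0.1 CPM. Any part of these cell types in the changes given below was not tested. The label dorsal hippocampus goes with granule cell, CA1 and CA3 markers at 761.2 CPM or more in each of the 12 libraries.

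No member of the Kdm5 family passed the test. Kdm5b, which overlaps Mgat4e, was at 81.2 CPM in the lowest, 87.6 in the median and 90.6 in the highest library at 1 h, and at 77.5, 83.6 and 93.5 CPM at 3 h (log2 fold change -0.04, SE 0.04, adjusted p = 0.873, and -0.07 on 11 libraries). WT libraries spanned 79.6 to 97.1 CPM at 1 h, and the total count of this gene, which spans exons the allele keeps, did not separate the genotypes. Kdm5a, Kdm5c and the related Jarid2 had log2 fold changes of -0.05, -0.10 and 0.00 on 12 libraries and -0.08, -0.05 and 0.00 on 11. The Y-linked Kdm5d stood at 33.2 CPM in the library labelled mutant 3 h female 2 and at 0 in the other 2 libraries labelled female at 3 h.

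On all 12 libraries, the immediate early genes were lower at 3 h than at 1 h in nearly every member, and no gene passed the test across all genes. edgeR called 0 of 17247 genes (0%), with 1387 genes at an unadjusted p under 0.05, of which 646 were lower (3.75% of the genes tested) and 741 higher (4.30%). DESeq2 with the same covariate called 73 genes, 37 lower (0.215%) and 36 higher (0.209%). Without the discordant library, edgeR called 18 genes, 12 lower at 3 h (0.0691%) and 6 higher (0.0345%), and DESeq2 called 223, 135 lower (0.861%) and 88 higher (0.561%). At an unadjusted p under 0.05 there were 817 lower (4.70%) and 745 higher genes (4.29%) in edgeR on 11 libraries. All 18 genes had the same direction on 12 libraries and 16 of them had an unadjusted p under 0.05 there. The 12 libraries hold the 11 that gave the calls, so this match follows in part from shared data. Of the 12 lower genes, the library labelled mutant 3 h female 2 was the highest of the 3 h libraries for 12, and it was the lowest for all 6 higher genes. Over all genes tested it was the highest for 21.8% and the lowest for 22.0%. The 18 genes were chosen by leaving it out, so its extreme place and the larger fold change without it follow in part from the choice.

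**Figure D1:**
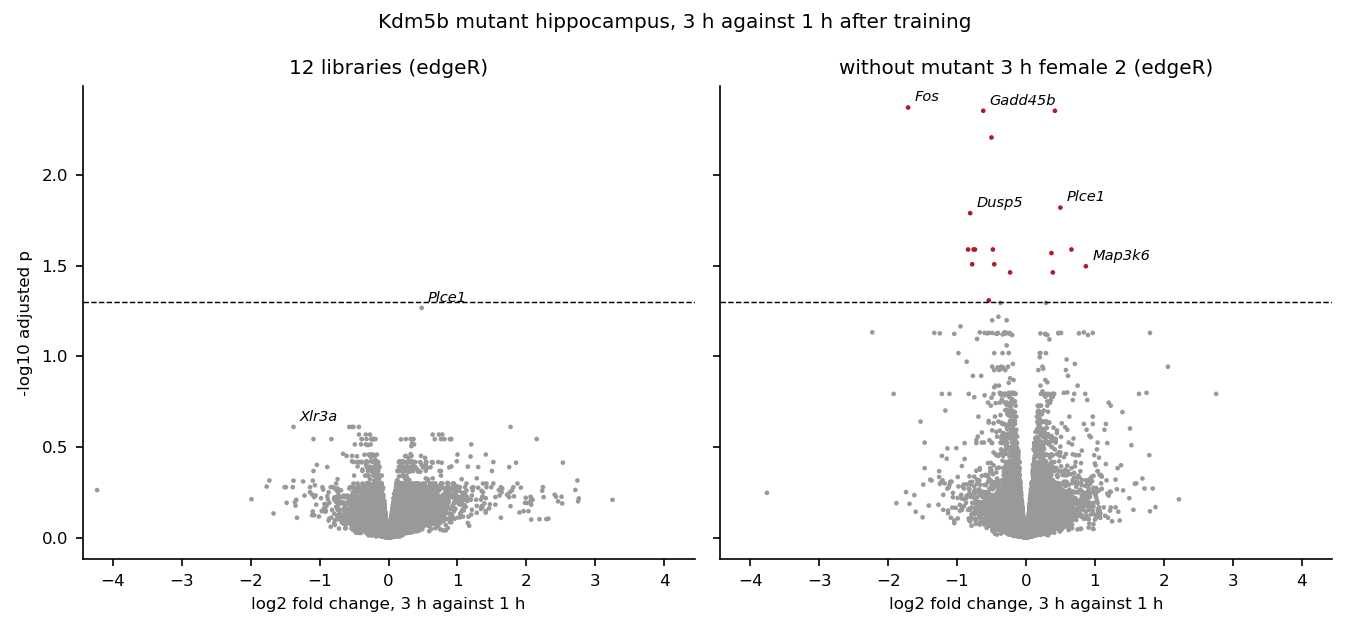
Log2 fold change of each gene between 3 h and 1 h in mutants (horizontal axis, negative is lower at 3 h) against -log10 of its edgeR adjusted p (vertical axis), on 12 libraries (left) and on 11 without mutant 3 h female 2 (right). The dashed line marks an adjusted p of 0.05, with 0 genes above it on the left and 18 (red) on the right.

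Fos, the founding member of the AP-1 family (chr12:85473890-85477274 on GRCm38.p6, the build of all positions here), fell the furthest of the 18 genes. Its level was 24.2, 29.5 and 33.2 CPM in the lowest, median and highest library at 1 h. At 3 h it was 9.10, 11.6 and 6.42 CPM in the libraries labelled male and 6.96, 43.9 and 9.87 CPM in those labelled female 1, 2 and 3. The 43.9 CPM of mutant 3 h female 2 exceeded every 1 h library, and the other 5 libraries lay below all of them and within the 6.25 to 19.8 CPM of naive mutants. The log2 fold change was -1.08 (SE 0.45, adjusted p = 0.598) on 12 libraries and -1.71 (SE 0.16, adjusted p = 0.00423) on 11. DESeq2 gave no adjusted p for Fos on 12 libraries.

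Nr4a3, an orphan nuclear receptor gene (chr4:48045078-48086447), showed the same arrangement with a smaller spread. It was at 48.7, 55.5 and 58.8 CPM at 1 h and at 32.7, 38.7 and 53.0 CPM at 3 h. The 53.0 CPM again belonged to mutant 3 h female 2, and the other 5 libraries at 3 h were below all 6 at 1 h. The log2 fold change was -0.43 (SE 0.08, adjusted p = 0.245) on 12 libraries and -0.50 (SE 0.06, adjusted p = 0.00619) on 11.

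Of the 24 immediate early transcription factor genes listed, 23 had enough counts to be tested and 22 were lower at 3 h, the exception being Klf6. The median log2 fold change was -0.36, against 0.00 over all genes tested. On 12 libraries 11 of the 23 had an unadjusted p under 0.05, all lower. On 11 libraries the median was -0.43 and 17 of 23 did, all lower, against 4.70% of all genes, with Fos and Nr4a3 called by edgeR (0.0691% of all genes were called lower) and 12 genes by DESeq2 (0.861%), the further 10 being Fosb, Fosl2, Junb, Egr1, Egr2, Egr4, Npas4, Nr4a1, Ier2 and Btg2. For 17 of the 23 genes, mutant 3 h female 2 was the highest library at 3 h, against 21.8% of all genes.

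Egr2, a zinc finger factor, had the largest fold change of the list. It was at 9.40, 11.1 and 17.5 CPM at 1 h, and at 3 h it stood at 19.9 CPM in mutant 3 h female 2 and between 1.27 and 4.46 CPM in the other 5. Its log2 fold change was -1.36 on 12 libraries (adjusted p = 0.637) and -2.23 on 11 (adjusted p = 0.0737), past the threshold in neither edgeR fit. Egr1, whose product drives synaptic plasticity genes, went from a median of 269.9 CPM (230.9 to 343.5) to 152.0 CPM (92.7 to 293.4), with log2 fold changes of -0.76 and -0.98. Junb, another AP-1 partner, had medians of 99.0 CPM at 1 h and 52.5 CPM at 3 h, and mutant 3 h female 2 was at 126.7 CPM. Its log2 fold change was -0.65 on 12 libraries and -0.95 on 11 (adjusted p = 0.586 and 0.0683). Nr4a1, a relative of Nr4a3, was at 103.2, 117.1 and 156.1 CPM at 1 h and at 43.2, 60.5 and 144.7 CPM at 3 h, the last in the discordant library (-0.75 and then -1.04, adjusted p = 0.0751). Fosb and Fosl2, further Fos family members, had log2 fold changes of -0.49 and -0.39 on 12 libraries and -0.67 and -0.43 on 11. Nr4a2 had -0.32 and -0.30, and its highest 3 h value, 78.6 CPM, belonged to another library. Npas4, a neuron-specific activity-dependent factor, had medians of 12.8 and 9.13 CPM, with 9.86 to 17.4 CPM at 1 h. At 3 h it was at 18.6 CPM in mutant 3 h female 2 and at 6.04 to 10.8 CPM in the other 5, and its log2 fold change was -0.43 on 12 libraries and -0.69 on 11 (adjusted p = 0.215). Jun and Egr3 had log2 fold changes of -0.11 and -0.13 on 12 libraries and -0.12 and -0.13 on 11.

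**Figure D2:**
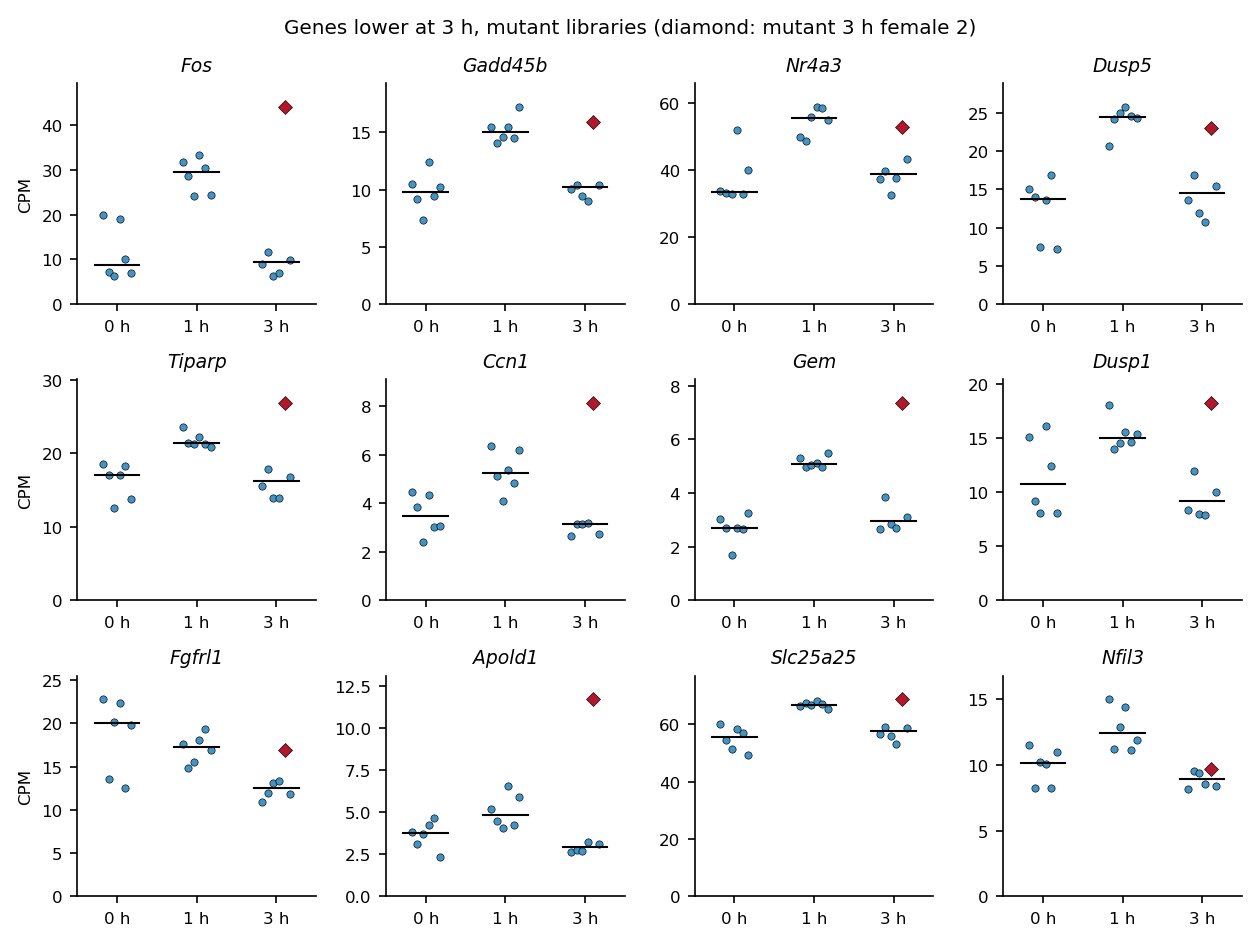
CPM of the 12 genes that edgeR called lower at 3 h without mutant 3 h female 2, in each mutant library at 0 h, 1 h and 3 h (linear axes from 0). Circles are libraries, the diamond is mutant 3 h female 2 and bars are medians of 6 libraries. The other 5 libraries at 3 h lie below all 6 at 1 h in each panel, and the diamond lies inside or above the 1 h range for all but Nfil3.

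Of the feedback inhibitors of MAP kinase signalling, Dusp1 and Dusp5 fell on 11 libraries. Dusp5, a nuclear phosphatase that inactivates ERK (chr19:53529145-53541809), was at 20.7, 24.4 and 25.7 CPM at 1 h and at 10.7, 14.5 and 23.0 CPM at 3 h. Only mutant 3 h female 2, at 23.0 CPM, reached the 1 h range. The log2 fold change was -0.66 (SE 0.15, adjusted p = 0.345) on 12 libraries and -0.81 (SE 0.11, adjusted p = 0.0162) on 11. Dusp1, a phosphatase induced by stress and growth factors (chr17:26505591-26508472), was at 14.0 to 18 CPM at 1 h, at 7.88 to 11.9 CPM in 5 libraries at 3 h and at 18.2 CPM in the discordant one. Its log2 fold change was -0.53 (adjusted p = 0.527) and then -0.74 (SE 0.11, adjusted p = 0.0257). Dusp6, a cytoplasmic ERK phosphatase, had log2 fold changes of -0.46 and -0.54 and was not called (adjusted p = 0.356 and 0.0742). Over the 21 genes of this list, 14 were lower and 7 higher on 12 libraries and 12 were lower on 11. On 12 libraries 7 had an unadjusted p under 0.05 and were lower, against 3.75% of all genes, and the median was -0.04, or -0.06 on 11 libraries. DESeq2 on 11 libraries called 5 of the 21, all lower, against 0.861% of all genes, adding Dusp6, Spry4 and Errfi1.

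Of the activity-induced effector genes, a mixed list of synaptic, signalling and nuclear proteins, 29 of 34 were lower at 3 h, with a median log2 fold change of -0.13. On 11 libraries 26 of 34 were lower and the median was -0.12. On 12 libraries 11 had an unadjusted p under 0.05, all lower, and on 11 libraries 14 were lower and 1 higher at that p, against 3.75% lower on 12 and 4.70% lower and 4.29% higher on 11 over all genes. Gadd45b, which takes part in active DNA demethylation (chr10:80930091-80932204), was at 14.1, 15.1 and 17.2 CPM at 1 h. At 3 h it was at 8.98 to 10.4 CPM in 5 libraries and at 15.9 CPM in mutant 3 h female 2. Its log2 fold change was -0.49 (SE 0.11, adjusted p = 0.306) on 12 libraries and -0.62 (SE 0.07, adjusted p = 0.00441) on 11. Tiparp, a mono-ADP-ribosyltransferase gene, fell by 0.48 on the log2 scale on 11 libraries (adjusted p = 0.0257). Arc, a regulator of AMPA receptor endocytosis, had medians of 212.7 CPM at 1 h and 93.2 CPM at 3 h. Its range at 3 h, 73.1 to 332.3 CPM, enclosed the 1 h range of 177.7 to 300.8 CPM, with mutant 3 h female 2 at the top. Its log2 fold change was -0.88 (edgeR adjusted p = 0.615) or -1.33 without it (edgeR adjusted p = 0.0742, DESeq2 adjusted p = 1.67e-06). DESeq2 on 11 libraries called 7 of the 34 genes, all lower, against 0.861% of all genes. They were Arc, Gadd45b, Gadd45g, Tiparp, Arl5b, Rasl11a and Sik1. Sik1, a salt-inducible kinase gene that CREB switches on, was at 16.4, 18.5 and 20.9 CPM at 1 h and at 7.75, 9.72 and 36.3 CPM at 3 h, the last in mutant 3 h female 2 (-0.40 and then -0.86, adjusted p = 0.107). Bdnf, a neuronal growth factor gene, had a log2 fold change of -0.19 on 12 libraries and -0.14 on 11, and Nptx2 and Homer1 -0.09 and -0.13 on 12 libraries and -0.07 and -0.11 on 11, none past the test.

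Another 6 of the 12 lower genes on 11 libraries were Gem, which encodes a small GTPase, Ccn1, a secreted matrix protein, Apold1, an endothelial early response gene, Fgfrl1, an FGF receptor-like gene, Slc25a25, a mitochondrial ATP-Mg carrier, and Nfil3, a bZIP repressor of the clock output. They fell by 0.76, 0.84, 0.78, 0.46, 0.23 and 0.54 on the log2 scale. Apold1 was at 4.03 to 6.54 CPM at 1 h, at 2.62 to 3.24 CPM in 5 libraries at 3 h and at 11.7 CPM in mutant 3 h female 2, and its log2 fold change was -0.31 on 12 libraries (adjusted p = 0.843). Nfil3 (chr13:52967209-52982878) was the only one of these genes whose groups were apart on all 12 libraries, at 11.1, 12.4 and 15.0 CPM at 1 h and 8.19, 8.96 and 9.69 CPM at 3 h (log2 fold change -0.51, SE 0.09, adjusted p = 0.245). Across all genes tested, 47 (0.273%) had all 6 libraries at 3 h below all 6 at 1 h, and 28 (0.162%) had them above.

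The 250 bases before a RefSeq transcript start of the 4 lower genes with the smallest p on 11 libraries are shown because promoters of early genes are known to hold binding sites for CREB and SRF. The sequences are from RefSeq on GRCm38.p6, all on the plus strand, 5′ to 3′. Capitals mark the CREB half-site TGACG on either strand (CGTCA when read on the other) and the CArG box of SRF.
Fos, chr12:85473640-85473889: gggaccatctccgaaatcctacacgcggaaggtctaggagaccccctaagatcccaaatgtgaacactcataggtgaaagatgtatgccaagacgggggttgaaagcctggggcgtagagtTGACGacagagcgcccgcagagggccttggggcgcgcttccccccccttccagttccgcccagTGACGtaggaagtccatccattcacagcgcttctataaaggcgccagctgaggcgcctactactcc
Gadd45b, chr10:80929841-80930090: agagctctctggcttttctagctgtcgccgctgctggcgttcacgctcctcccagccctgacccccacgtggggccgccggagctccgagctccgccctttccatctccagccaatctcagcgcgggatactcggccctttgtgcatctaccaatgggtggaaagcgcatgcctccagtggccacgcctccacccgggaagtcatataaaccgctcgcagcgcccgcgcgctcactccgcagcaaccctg
Nr4a3, chr4:48045055-48045304: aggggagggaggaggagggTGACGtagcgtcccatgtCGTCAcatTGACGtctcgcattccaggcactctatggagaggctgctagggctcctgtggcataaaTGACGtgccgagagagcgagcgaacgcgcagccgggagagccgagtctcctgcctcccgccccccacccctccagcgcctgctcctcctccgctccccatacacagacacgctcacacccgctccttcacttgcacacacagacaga
Dusp5, chr19:53528895-53529144: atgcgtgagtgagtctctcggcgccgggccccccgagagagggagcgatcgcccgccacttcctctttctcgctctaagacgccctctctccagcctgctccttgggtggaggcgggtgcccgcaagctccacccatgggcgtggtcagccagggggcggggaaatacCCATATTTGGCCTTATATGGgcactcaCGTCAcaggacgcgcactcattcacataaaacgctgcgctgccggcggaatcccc
Fos held 2 half-sites, Nr4a3 4 and Dusp5 1, and Gadd45b none in this window. Dusp5 held 2 adjoining CArG boxes, CCATATTTGG and CCTTATATGG. The half-site was in the 250 bases of 17.8% of the 32851 promoters in the table, the full site TGACGTCA in 1.55% and the CArG box in 1.47%. Of the 12 lower genes, 11 had a promoter in the table, and 8 of these held a half-site (Fos, Nr4a3, Dusp5, Dusp1, Apold1, Ccn1, Nfil3 and Slc25a25), 2 the full site (Dusp1 and Slc25a25) and 1 a CArG box (Dusp5). Of the 6 higher genes, 3 held a half-site, and none of the 6 the full site or a CArG box. A gene with several starts counted when any of them held the letters. The percentages count each promoter on its own, so they are not on the same footing as the gene counts. Sites outside the 250 bases were not counted. These matches describe the letters and were not tested against binding.

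On 11 libraries edgeR called 6 genes higher at 3 h, and a shared process among them was not tested. Plce1, which encodes phospholipase C epsilon, an effector of Ras and Rap GTPases (chr19:38481034-38785105), had the smallest p on 12 libraries. It was at 11.7, 14.0 and 14.6 CPM at 1 h and at 16.9, 18.9 and 21.6 CPM at 3 h, so that all 6 libraries at 3 h lay above all 6 at 1 h. The log2 fold change was 0.48 (SE 0.06, adjusted p = 0.054) on 12 libraries and 0.50 (SE 0.07, adjusted p = 0.0151) on 11. Fam214a (chr9:74952867-75032468) was at 48.0, 49.4 and 57.9 CPM at 1 h. At 3 h it was at 65.9 to 70.7 CPM in 5 libraries and at 48.7 CPM in mutant 3 h female 2, with log2 fold changes of 0.36 (adjusted p = 0.286) and 0.42 (SE 0.05, adjusted p = 0.00441). Pde10a, a phosphodiesterase that hydrolyses cAMP and cGMP, was at 83.5 to 99.3 CPM at 1 h, at 108.2 to 124.3 CPM in 5 libraries at 3 h and at 79.3 CPM in the discordant library. Its rise on 11 libraries was 0.37 on the log2 scale (adjusted p = 0.0269). The other 3 that rose on 11 libraries were Stxbp2 (0.66), which encodes a syntaxin-binding protein of vesicle fusion, Map3k6 (0.87), a stress kinase gene, and 4933404O12Rik (0.39). Map3k6 was at 2.53, 3.29 and 3.56 CPM at 1 h, at 3.06 CPM in mutant 3 h female 2 and at 4.36 to 7.73 CPM in the other 5 at 3 h. Stxbp2 was at 12.8, 19.3 and 24 CPM at 1 h and at 19.2, 24.8 and 35.6 CPM at 3 h. Naive mutants spanned 11.1 to 36.8 CPM, which encloses the values at both times. The log2 fold change of Stxbp2 was -0.12 in WT. Its log2 difference between genotypes was 0.67 (edgeR unadjusted p = 0.00588, adjusted p = 0.995), and 0.68 without both discordant libraries.

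**Figure D3:**
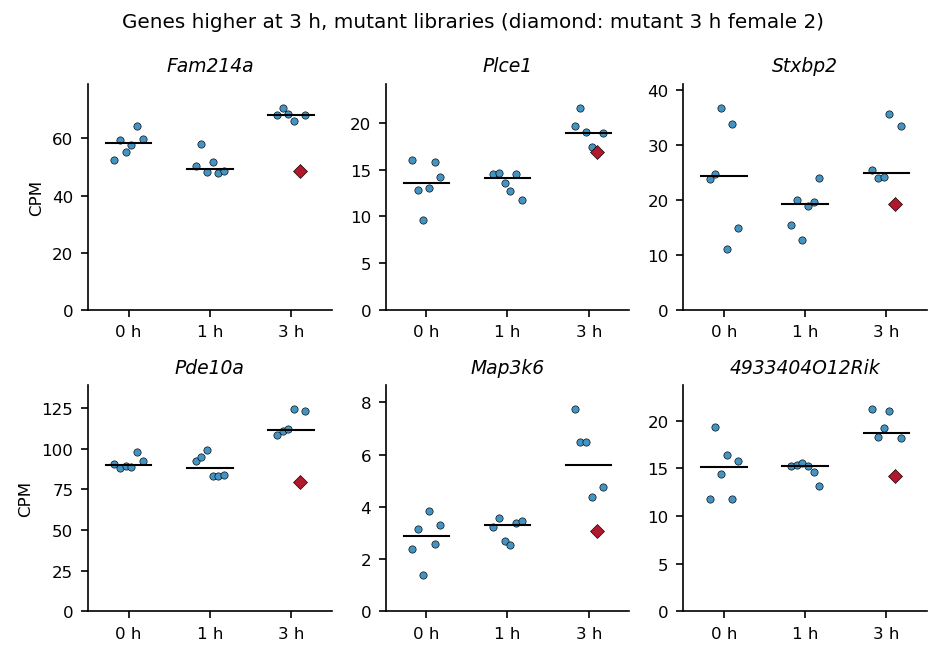
CPM of the 6 genes that edgeR called higher at 3 h without mutant 3 h female 2, in each mutant library at 0 h, 1 h and 3 h (linear axes from 0). Circles are libraries, the diamond is mutant 3 h female 2 and bars are medians of 6 libraries. The diamond is the lowest 3 h library in every panel, and the other 5 lie above all 1 h libraries.

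The 24 genes named by the smallest unadjusted p on 12 libraries held 15 lower and 9 higher at 3 h, with absolute log2 fold changes from 0.19 to 1.38. On 11 libraries all 24 had the same direction, and edgeR called 5 of them (Plce1, Nfil3, Nr4a3, Fam214a and Map3k6). None passed edgeR's threshold on 12 libraries (adjusted p from 0.054 to 0.286), and all 24 passed in DESeq2. Groups did not overlap for 14, 11 lower and 3 higher. Over all genes, DESeq2 called 0.215% lower and 0.209% higher. The shares with groups apart were 0.273% lower and 0.162% higher. The 24 genes were chosen by p on these same libraries, so these counts and the shared direction follow in part from the choice. Marchf11, a membrane-bound ubiquitin ligase gene, was at 3.92, 4.77 and 5.63 CPM at 1 h and 2.98, 3.17 and 3.55 CPM at 3 h (log2 fold change -0.57, SE 0.10, adjusted p = 0.245, and -0.56 on 11 libraries). Adcy8, a calcium-stimulated adenylyl cyclase, had medians of 33.0 and 23.7 CPM (log2 fold change -0.43, adjusted p = 0.27, and -0.41 on 11 libraries). Mmp17, a membrane-type metalloproteinase, was at 240.6 to 277.8 CPM at 1 h and 194.5 to 225.7 CPM at 3 h (-0.27 and -0.25). Grm3, a metabotropic glutamate receptor, was at 45.3 to 55.4 CPM and then 38.0 to 44.1 CPM (-0.23 in both fits). Utp14b, a ribosome biogenesis gene that overlaps Acsl3, had log2 fold changes of -0.53 and -0.49, and reads of the pair may not be told apart. Xlr3a, an X-linked gene with near-identical copies whose reads the counting could split, had the largest fold change of the 24 (-1.38, and -1.25 on 11 libraries), at a median of 2.27 CPM and then 0.79 CPM. Naive mutants spanned 0.39 to 3.73 CPM for Xlr3a, which encloses its values at both times, and its WT log2 fold change was 0.03. Acacb, the mitochondrial acetyl-CoA carboxylase, was higher, at medians of 7.59 and 12.3 CPM (0.64, SE 0.13, adjusted p = 0.27, and 0.58 on 11 libraries). The developmental factor Tbx3 and Megf6 were at 1.83 and 2.79 CPM at 1 h and at 3.11 and 4.41 CPM at 3 h (0.78 and 0.73 on 12 libraries, 0.84 and 0.77 on 11). Both had groups that did not overlap.

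Glucocorticoid-induced genes, which follow the hormone released by stress, went both ways. Of 21 tested, 9 were lower and 12 higher at 3 h, 4 and 6 of them with an unadjusted p under 0.05, against 3.75% and 4.30% of all genes, and the median was 0.07, or 0.15 on 11 libraries. Plin4, a lipid droplet coat gene that overlaps Hdgfl2, had the largest log2 fold change (1.85, SE 0.47, adjusted p = 0.386, and 2.06 on 11 libraries), at 3.43, 5.91 and 9.73 CPM at 1 h and 5.36, 22.2 and 35.2 CPM at 3 h. Its lowest 3 h value, 5.36 CPM, was that of mutant 3 h female 2. Naive mutants spanned 1.81 to 24.1 CPM for Plin4. Hif3a (0.86), Sult1a1 (0.56), Mertk (0.34) and Fkbp5 (0.31), which encodes a chaperone of the glucocorticoid receptor, were higher, and Ddit4 (-0.46), Pdk4 (-0.44) and Errfi1 (-0.35) lower, none past edgeR's threshold on 12 libraries. On 11 they had 0.97, 0.63, 0.43, 0.38, -0.60, -0.54 and -0.44. Only Map3k6 passed on 11 libraries, while DESeq2 called 11 of the 21 there, 6 higher and 5 lower, against 0.561% and 0.861% of all genes. Per1, which is also a clock gene, was among the 5, with log2 fold changes of -0.33 and -0.49.

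Clock genes were likewise split, with 7 of 20 lower, 13 higher and a median of 0.06 in both fits. Rorb, a nuclear receptor gene, had medians of 23.4 CPM at 1 h and 17.6 CPM at 3 h (log2 fold change -0.33, SE 0.07, adjusted p = 0.27, and -0.34 on 11 libraries). Dbp, a bZIP output of the clock, was at 25.6, 40.2 and 46.3 CPM at 1 h and at 38.5, 57.3 and 66.8 CPM at 3 h (0.53, adjusted p = 0.527, and 0.48 on 11 libraries), and the repressor Per3 at medians of 53.1 and 67.5 CPM (0.32 in both fits, adjusted p = 0.346 on 12 libraries). Dbp overlaps Sphk2 and Per3 overlaps Uts2. The mice of the 2 time points were killed at different times after training, and the clock time of each was not among the labels used here, so hours since training and time of day cannot be told apart.

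The next list held endoplasmic reticulum chaperones, which fold secreted and membrane proteins, together with regulators of the unfolded protein response and of protein degradation. Of these 24 genes, 22 were higher at 3 h, with a median log2 fold change of 0.11 on 12 libraries and 0.15 on 11, and 8 and then 13 had an unadjusted p under 0.05, all higher, against 4.30% and 4.29% of all genes. Hyou1 was at 100.2, 107.1 and 111.7 CPM at 1 h and 110.2, 114.8 and 131.8 CPM at 3 h (0.15, SE 0.05, adjusted p = 0.46, and 0.17 on 11 libraries). Pdia3, a protein disulfide isomerase that overlaps Catsper2, was at medians of 175.8 and 200.7 CPM (0.15, SE 0.05, adjusted p = 0.503, and 0.18 on 11 libraries). edgeR called none of the 24 in either fit, and DESeq2 called Hyou1, Pdia3, Pdia6 and Hsp90b1 on 11 libraries, against 0.561% of all genes. The stress factor Trib3 had the largest fold change (0.76 and 0.80), at a low level of 0.22 to 0.35 CPM at 1 h and 0.36 to 0.82 CPM at 3 h. Atf4 was one of the 2 lower genes (-0.18 and -0.15).

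Genes of sterol and fatty acid synthesis were lower in 20 of 24, with a median of -0.05, or -0.09 on 11 libraries. The library labelled mutant 3 h female 2 was the highest at 3 h for 18 of the 24. Cytosolic heat shock chaperones, insulin and FoxO-regulated genes, cAMP signalling genes and ribosome biogenesis genes had medians of -0.01, -0.03, -0.02 and -0.04, and of -0.01, -0.05, -0.02 and -0.03 on 11 libraries. The median of all genes was 0.00. Within the heat shock list Dnajb5, a co-chaperone, had the smallest p (-0.25, adjusted p = 0.379, and -0.28 on 11 libraries). Dnajb1, the co-chaperone of inducible HSP70, was at 54.5 to 59.1 CPM at 1 h, and at 3 h at 72.5 CPM in mutant 3 h female 2 and a median of 46.9 CPM (-0.18 on 12 libraries and -0.30 on 11, edgeR adjusted p = 0.0746). DESeq2 on 11 libraries called 2 of the 27 heat shock genes, Dnajb1 and Dnajb5, both lower, against 0.861% of all genes. Of the insulin and FoxO-regulated genes, Pnpla2, the main triglyceride lipase, and Sgk3, a kinase, had 0.33 and 0.53 on 12 libraries and 0.33 and 0.59 on 11. DESeq2 called both on 12 and on 11 libraries, against 0.209% and 0.561% of all genes called higher, and edgeR called neither.

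**Figure D4:**
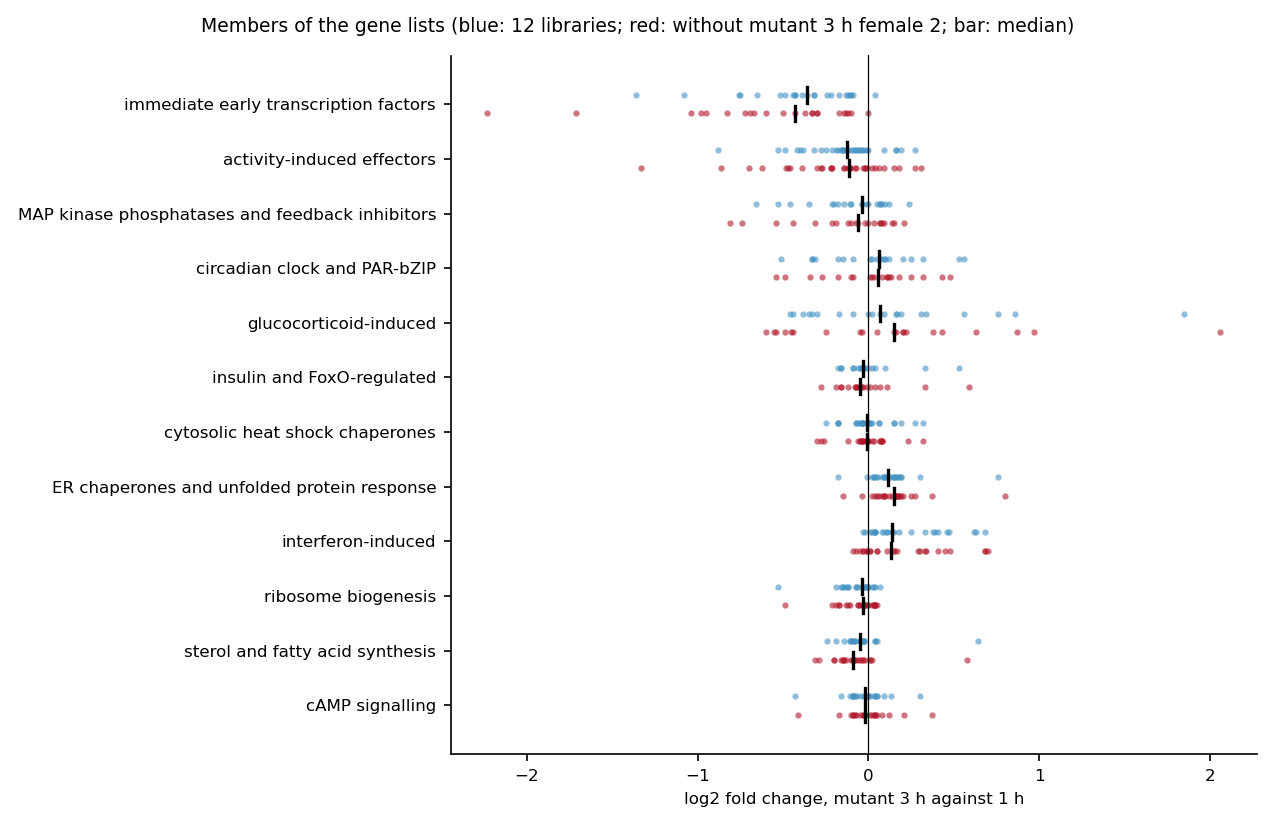
Log2 fold change between 3 h and 1 h in mutants of each tested gene of 12 gene lists (1 point per gene, 1 line per list), on 12 libraries (blue) and on 11 (red). The black bar is the median, which is lowest for the immediate early transcription factors (-0.36 and -0.43).

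Interferon-induced genes, which defend cells against viruses, had fold changes of mostly opposite sign in the 2 genotypes, and edgeR called none in either. In mutants 24 of 26 were higher at 3 h, with a median log2 fold change of 0.14, 5 of them with an unadjusted p under 0.05, against 4.30% of all genes. On 11 libraries 8 of 26 were lower, 4 had an unadjusted p under 0.05 and were higher, against 4.29% of all genes, and the median was 0.13. In WT mice, which share no library with the mutants, all 26 were lower at 3 h, with a median of -0.47, and edgeR called 0 of 17388 genes (0%) between the WT times, with 1288 at an unadjusted p under 0.05, and DESeq2 called 65. Their summed level was 158.6, 162.3 and 185.0 CPM in mutants at 1 h and 156.3, 183.0 and 190.1 CPM at 3 h. In WT it was 164.7, 192.1 and 269.1 CPM at 1 h and 150.9, 162.7 and 182.6 CPM at 3 h. The 269.1 CPM was that of WT 1 h female 2, and the next highest WT library at 1 h was at 216.3 CPM. Naive mutants had 153.6, 176.2 and 203.8 CPM. The ranges overlap between times in both genotypes, and the lowest WT value at 1 h was that of the discordant library WT 1 h male 1 and the highest mutant value at 3 h that of mutant 3 h female 2.

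The difference between the 2 changes was tested for each gene as an interaction over 24 libraries. edgeR called 0 of 17911 genes (0%, smallest adjusted p 0.995), with 801 at an unadjusted p under 0.05 (4.47%), and DESeq2 also called 0. Of the 26 interferon-induced genes, 19 (73.1%) had an unadjusted p under 0.05, and in all 26 the mutant change was above the WT change. Without both discordant libraries it was 18 of 26, against 668 of 18000 genes (3.71%). All 26 were measured in the same libraries, so they are not independent values. Ddx60 (log2 difference 1.79, SE 0.37), Rtp4 (1.08) and Tpgs1 (-0.24), a tubulin polyglutamylase subunit, had the smallest p over all genes in this test. Ifit3b, which overlaps Ifit1bl1, was the one member whose mutant groups did not overlap, at 1.42, 1.73 and 2.16 CPM at 1 h and 2.23, 2.45 and 3.43 CPM at 3 h (0.63, SE 0.16, edgeR adjusted p = 0.383, and 0.68 on 11 libraries). DESeq2 gave Ifit3b an adjusted p of 0.0667 on 12 libraries and 0.0213 on 11. It was the 1 member DESeq2 called on 11, against 0.561% of all genes called higher. Ddx60, a helicase of antiviral defence, was at 0.45 to 0.82 CPM in mutants at 1 h and 0.76 to 1.67 CPM at 3 h, the 1.67 CPM in mutant 3 h female 2 and 1.21 CPM at most in the other 5, and at 0.57 to 1.72 and then 0.37 to 0.62 CPM in WT. Its mutant log2 fold change was 0.74 on 12 libraries and 0.60 on 11, and its difference without both discordant libraries 1.74. Rtp4, a chaperone of receptors that interferon induces and that overlaps Masp1, was at medians of 0.93 and 1.23 CPM in mutants and 1.51 and 1.04 CPM in WT. Of the 26 genes, 18 had a mean under 5 CPM in the mutants, so most of the list was at a low level.

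**Figure D5:**
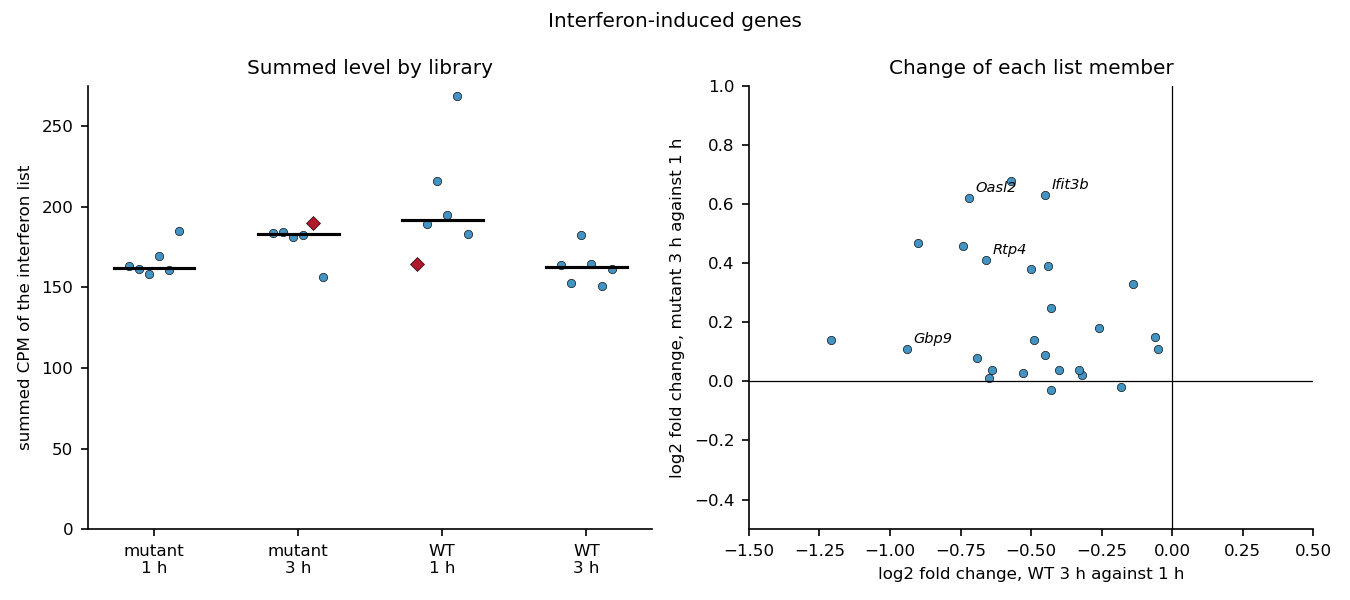
Left, summed CPM of 26 interferon-induced genes in each mutant and WT library at 1 h and 3 h (axis from 0), with diamonds for the 2 libraries of discordant sex transcripts and bars for medians of 6. Right, log2 fold change of each gene between 3 h and 1 h in mutants (vertical axis) against WT (horizontal axis), where all 26 points lie left of 0 and 24 lie above 0.

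Of the 23 immediate early transcription factor genes tested, 22 were lower at 3 h in mutants and 21 in WT. Their median log2 fold change was -0.38 in WT against -0.36 in mutants, or -0.39 and -0.43 without the discordant library of each. Of the 23, Jund alone had an unadjusted p under 0.05 in the interaction, with and without both libraries, and the median difference was -0.00 with them and -0.14 without. Jund, a constitutive AP-1 member, had log2 fold changes of -0.09 in mutants and 0.17 in WT. Fos had a WT log2 fold change of -1.29 and a difference of 0.25 (unadjusted p = 0.668), which was of the other sign, -0.29, without both discordant libraries (unadjusted p = 0.471). Egr2 likewise had 0.50 and -0.27. Nr4a3 had -0.40 in WT and a difference of -0.02 (unadjusted p = 0.942), or 0.02 without both. In WT at 1 h, Fos was lowest in the discordant library WT 1 h male 1, at 11.7 CPM against 19.2 to 34.4 CPM in the other 5. Without it the WT fold change was -1.41 (adjusted p = 0.268). A p above the threshold does not show that the changes are alike.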

How the data were processed

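Gene counts were deposited per library by the authors, as whole-number counts, not normalized. Per the submitters' processing notes, the tools were STAR 2.7.8a and featureCounts 2.0.1 and the build mm10. Strand and multimapping settings are not given in the sources used here. Each file held 27179 genes by Entrez identifier, 25275 of which were named from RefSeq, and the 1904 without a name took 1.28% of counts and stayed in library sizes and tests. Total counts per library ranged from 53798470 to 86720768 in the 12 libraries compared, and no libraries of a group held identical counts.

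Mutant 3 h libraries (n = 6) were compared with mutant 1 h libraries (n = 6) with edgeR 4.0.16 (quasi-likelihood test, filterByExpr with a minimum count of 10, TMM, labelled sex as covariate, R 4.3.3), with Benjamini-Hochberg adjustment over all genes tested and a threshold of 0.05. WT libraries were fitted alike, and the genotype difference as an interaction. DESeq2 1.42.0 was the alternative. The other alternatives were RLE scaling, no filter or at least 10 counts in every library, no covariate, sex as the counts show it, all 36 libraries in the fit, mitochondrial and ribosomal RNA genes left out, each labelled sex alone, a replicate block and leaving out each library. DESeq2 without mutant 3 h female 2, the WT fits that leave out 1 library and the interaction without both discordant libraries were chosen after seeing the data, as was the genotype check. Libraries with over 1000 summed counts on Y-linked genes were taken as male. Fits were checked on simulated data. With no changed genes neither tool made a call, and with some changed the share of false calls was near the threshold for edgeR and well above it for DESeq2, so DESeq2 calls are given beside those of edgeR.

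The members and gene lists were chosen with earlier results of these data known. Named genes were the 24 with the smallest p and a mean of at least 1 CPM, the leading genes of each list, those past the threshold and those leading the genotype difference. Other list members are given as examples, chosen after their values were seen, as were the genes called on 11 libraries. A result for 1 list member is not reported here. Promoters are from RefSeq on GRCm38.p6.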

Additional observations from a re-analysis of the deposited data

Results flagged for a closer look

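In groups of 6 libraries, the gap between the most extreme library and its nearest neighbour was compared with the range of the group for 56 genes in both mutant groups. It passed Dixon's 95% critical value in 15 of 112 groups, where chance gives about 5%. The 56 genes were chosen for small p-values, so that percentage is not the share to compare with. The library labelled mutant 3 h female 2 accounted for 9 of the 15, and all 9 are in genes called by edgeR only with this library left out, so nothing is read from their number. It was the highest at 3 h for Fos (43.9 CPM, next 11.6), Gadd45b (15.9, next 10.4), Gem (7.35, next 3.84), Tiparp (26.8, next 17.8), Ccn1 (8.13, next 3.18), Apold1 (11.7, next 3.24) and Slc25a25 (68.8, next 59.0), and the lowest for Fam214a (48.7, next 65.9) and Pde10a (79.3, next 108.2). At 1 h, mutant 1 h male 1 stood apart for Grm3 (55.4 CPM, highest), Dusp1 (18, highest) and Dusp5 (20.7, lowest), and mutant 1 h male 2 for Dr1 (63.1, highest) and Fam214a (57.9, highest). At 3 h, mutant 3 h female 1 was the highest for Oasl2, an interferon-induced gene (4.14 CPM).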

How the results depend on the processing

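The count of genes called between 3 h and 1 h in mutants depended on the tool and on 1 library. edgeR on 12 libraries called 0, and it called 1 with at least 10 counts in every library and 1 with no filter. DESeq2 called 73 with sex and 70 with a prior and no covariate, and 223 and 264 without mutant 3 h female 2. Leaving out each library in turn gave 0 to 18 calls in mutants, the 18 without mutant 3 h female 2 and 1 without mutant 1 h female 2, and 0 to 3 in WT, the 3 without WT 1 h male 1 and 1 each without WT 1 h female 2 and female 3. In WT, DESeq2 called 65 with sex and 52 with a prior. The interaction gave 0 calls under every alternative run. The cause of the differences between tools was not tested. With the replicate number as a replicate block, edgeR called 0 genes (1240 at an unadjusted p under 0.05, smallest adjusted p 0.2), and the deviations of same-numbered libraries correlated at -0.0468 to 0.177 over 6 numbers, over 0.1 for 3 of them, so the numbers were not taken as pairs. Of 1454 values of 56 named genes, 1273 kept their direction and side of the threshold, 179 passed the threshold in addition and 2 reversed, both in the libraries labelled female alone, Kdm5b (0.04) and Apold1 (0.11). The median of the immediate early transcription factor genes was -0.12 under DESeq2 with a prior, which shrinks fold changes. Of 338 list medians, 335 moved by less than the spread between libraries, the rest besides that one being ribosome biogenesis in the libraries labelled female (-0.08) and male (-0.00) alone. The part of sequencing depth in the values of genes at low levels, such as Ddx60, was not tested.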
